A study of Mus musculus with 8 samples.

Results

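The interaction of Rbbp4 and Rbbp7 loss was measured in mouse late morulae as the part of a double knockdown's change that the sum of the single knockdowns' changes does not give. For each gene it is the mean log2(value + 1) of the double knockdown, minus that of the Rbbp4 knockdown, minus that of the Rbbp7 knockdown, plus that of the control. A value of 0 means that the single changes add up on the log2 scale, and a positive value means that the gene was higher with both siRNAs than their sum. The genes used were those listed above 0 in all 8 libraries with a mean normalized abundance of at least 50, which were 9792 of the 19058 genes in the deposited table (51.4%). Another 69 genes had a mean of at least 50 but were listed at 0 in at least 1 library and were left out, so that no listed 0 sets a value here. The lowest mean among the genes used was 50.2 (Vmac) and, among genes above 0 in all 8 libraries, the highest mean left out was that of Unc13a, just under 50. Of the genes used, 205 would have had a mean under 50 without their highest group, and in 106 of those the highest group was the double knockdown.

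Polyadenylated RNA was sequenced from mouse late morulae collected 78 h after fertilization, the stage the labels call E3.25. Zygotes had been injected with Rbbp4 siRNA, with Rbbp7 siRNA, with siRNA against both genes, or with a non-specific siRNA, which is the control that every comparison shares, and each of these 4 groups has 2 libraries. The labels give no strain or siRNA amount, so the total siRNA dose of the double group relative to the single groups is not known here. Nor do they state whether a group's 2 libraries came from separate embryo pools; the p-values therefore reflect the spread between libraries alone, which may be technical.

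RBBP4 and RBBP7 are closely related WD40-repeat proteins that bind histones H3 and H4. Both are shared subunits of the NuRD and SIN3 deacetylase complexes and of the polycomb repressive complex PRC2, while RBBP4 also belongs to the histone chaperone CAF-1 and to the MuvB complex that represses cell cycle genes. In the late morula the outer cells begin to form the trophectoderm and the inner cells the inner cell mass, and the series title names proliferation and deposition of the histone variant H3.3 as the functions studied.

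The siRNAs lowered their targets to similar levels alone and together. Rbbp7 (Ensembl gene ENSMUSG00000031353) was at 8399 and 7205 in the control libraries, 6696 and 6295 with Rbbp4 siRNA, 298 and 293 with Rbbp7 siRNA and 327 and 266 with both siRNAs, with an interaction of 0.26 ± 0.20 (log2 ± SE; adjusted p = 0.847). Rbbp4 (ENSMUSG00000057236) was at 5300.1 and 4710.0, 402 and 343, 4369.7 and 4467, and 348 and 433 in the same order, with an interaction of 0.24 ± 0.21 (adjusted p = 0.866). No library of a knockdown group overlapped the control libraries for the gene it targeted. Adjusted p-values here and below are from limma with Benjamini-Hochberg adjustment over all 12565 genes whose mean was 10 or more.

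Column totals of normalized abundance were 11334107 to 12011829. Control replicate 1 stood apart, with 0 listed for 3937 genes (2644 to 3237 elsewhere), 6.21% of its signal from mitochondrial genes against 4.26% to 5.53%, and the lowest mean correlation across genes with the other libraries (0.938). Over the genes used, the mean variance within a group on the log2 scale was 0.111 in the control, 0.0601 with Rbbp4 siRNA, 0.0687 with Rbbp7 siRNA and 0.102 with both siRNAs. Because the control enters both single changes and the double change, a high control value lowers all 3 changes and raises the interaction by the same amount. Values of sperm markers summed to at most 4.91 and of blood cell markers to at most 33.0 in any library. The 10 cumulus and granulosa cell markers in the table summed to 126 and 140 in the control, 157 and 244 with Rbbp4 siRNA, 162 and 101 with Rbbp7 siRNA, and 285 and 213 with both siRNAs. Of their defining genes, Foxl2 was at 101 and 74.4 with both siRNAs against 29.3 and 12.0 in the control. Amhr2 was at 145 and 87.1 with both siRNAs against 67.8 and 91.3, and Star at 24.3 and 34.7 against 26.7 and 28.1, so both overlapped the control. Inha, Cyp11a1 and Fst were listed at 0 in at least 5 of the 8 libraries, and the part of these markers in the results below was not tested.

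For most genes the changes were close to additive. The interaction had a median of −0.02 and an SD of 0.46 over the 9792 genes, with 4578 values above 0 and 5214 below, and ranged from −3.75 to 4.19. The median SE of a gene's interaction was 0.28, so small departures from the sum were not resolved in single genes. It was called (adjusted p under 0.05) for 0 of the 9792 genes (percent called 0.0) and for 1 of the 12565 tested genes (0.00796%), which is Ndufa9, a gene listed at 0 in both Rbbp4 knockdown libraries. At an unadjusted p under 0.05 there were 660 of the 9792 genes (6.74%) and 815 of all tested genes (6.49%). The sign was the same in all 16 choices of 1 library per group for 1956 genes (20%), of which 946 were positive (9.66%) and 1010 negative (10.3%). Without control replicate 2 the test called 5 of the 9792 genes (among them Cbr4, Ank2, Gm10925 and Gm38100), without double knockdown replicate 1 it called Gm2223, and without replicate 2 of that group Ddx3y.

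An interaction of at least 1 in size, a 2-fold departure from the sum, was found for 394 genes (4.02%), 242 positive (2.47%) and 152 negative (1.55%). The share fell with abundance, from 15.7% of genes with a mean of 50 to 100, through 5.99% at 100 to 300 and 1.30% at 300 to 1000, to 0.304% above 1000. The 394 genes were divided by the sizes of the 3 changes, with no test. In 47 genes (0.48%) the double knockdown differed from the control by at least 1 and each single knockdown by under 0.5, which is called double-only here, and 31 of these were higher and 16 lower. In 20 genes (0.204%) the larger single change was at least 0.5 and the double change went further the same way than the sum, in 19 of them upward. The reversals numbered 221: 57 opposite genes (0.582%), in which the double knockdown differed by at least 0.5 in the direction opposite to the larger single change, and 164 genes back to control (1.67%), in which a single change of at least 0.5 was under 0.5 with both siRNAs. In 51 genes (0.521%) the double change had the direction of the larger single change but fell short of the sum, and 55 (0.562%) met none of these limits.

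The larger single change was that of the Rbbp7 knockdown in 44 of 57 opposite genes (77.2%) and 101 of 164 genes back to control (61.6%). The share was 60.3% of the 1745 genes used whose larger single change was at least 0.5, and 55.8% of all genes used. In 58 of those 164 both single knockdowns had differed by at least 0.5 the same way. The sign held in all 16 choices of libraries for 37 of 47 double-only, 50 of 57 opposite and 103 of 164 back-to-control genes, against 20% of all genes used, but size chose these genes and nothing is read from the shares. Filters also shaped the classes, since some genes reached a mean of 50 only through the double knockdown. These were 11 of the 31 higher double-only genes and 7 of the 19 that went further up than the sum. With a positive interaction, they were also 11 of the 41 opposite and 4 of the 97 back-to-control genes. All 394 genes kept the sign of their interaction when it was computed on the linear scale of the deposited values, and 382 of all 9792 genes did not. The 394 were chosen for a large interaction in the same values, so nothing is read from this contrast either.

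**Figure D1:**
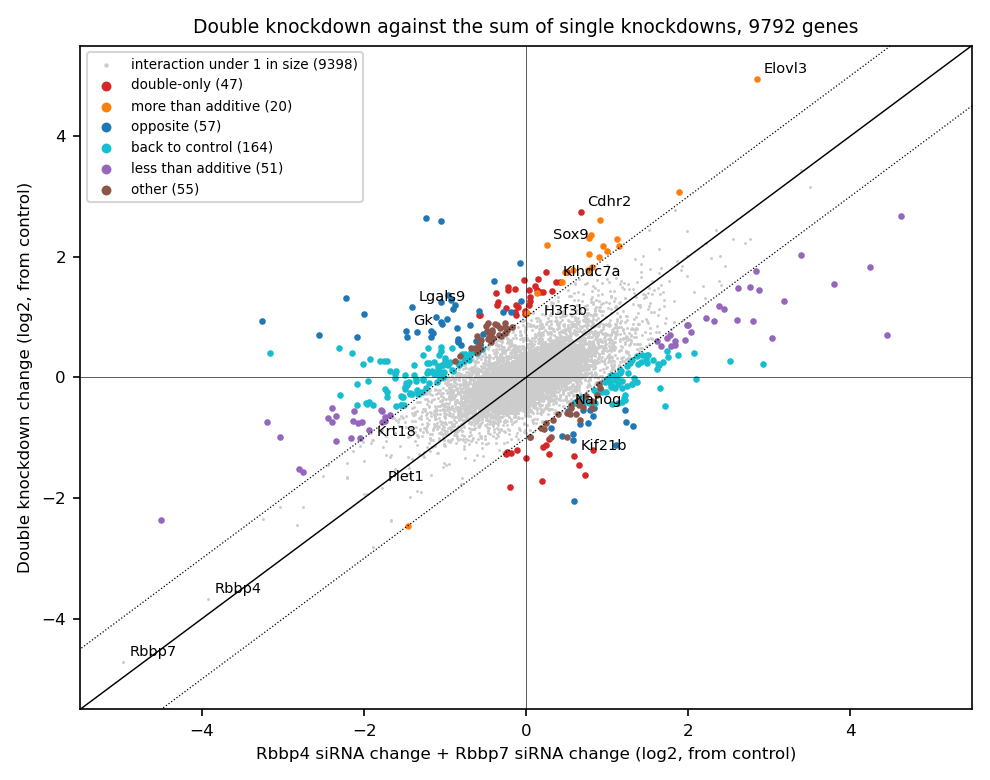
Change with both siRNAs (vertical axis, log2 from control) against the sum of the changes in the Rbbp4 and Rbbp7 knockdowns (horizontal axis, log2) for 9792 genes, 1 point per gene. Points on the solid line are additive and the dotted lines mark an interaction of 1 in size; coloured points are the 394 genes beyond it, by class, with numbers in the key, and Rbbp4, Rbbp7 and Plet1 lie close to the solid line.

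A second comparison tested the mean of the double knockdown against the mean of the control and both single knockdowns. A call does not mean that the double knockdown differed from each of these groups. For Rbbp4 and Rbbp7 themselves, its libraries overlapped those of the single knockdown of that gene. Of the 12565 tested genes this comparison called 111 (0.883%), 66 higher (0.525%) and 45 lower (0.358%), with 2081 at an unadjusted p under 0.05 (16.6%). It called 103 of the 9792 genes (1.05%), 62 higher (0.633%) and 41 lower (0.419%), including Rbbp4 and Rbbp7 themselves, and 1753 passed at an unadjusted p under 0.05 (17.9%). Against the control alone, 139 genes were called with both siRNAs (1.42%), 3 with Rbbp7 siRNA (0.0306%: Rbbp7, Enpep and Fabp3) and 1 with Rbbp4 siRNA (0.0102%: Rbbp4). All 103 genes kept their direction under every alternative, but this comparison chose them in the same libraries, so nothing is read from that. The number of calls depended on single libraries. Without Rbbp4 knockdown replicate 1 the test called 3 of the 9792 genes (Rbbp4, Rbbp7 and BC051019), so every other gene named below as called in this comparison lost its call there. Without Rbbp4 knockdown replicate 2 there were 8. Leaving out replicate 1 or replicate 2 of the Rbbp7 knockdown gave 26 and 19, of the double knockdown 10 and 22, and of the control 76 and 87. By class the called genes were 12 double-only, 13 more than additive, 7 opposite, 3 meeting no class limit, 0 back to control and 68 with an interaction under 1 in size. The classes were cut from the same values, so nothing is read from this split. Of the 103 genes, 7 reached a mean of 50 only through the double knockdown.

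The promoters of 4 genes that stand for the main patterns are shown before their values, as the 250 bases before the RefSeq gene start on GRCm38.p6, read 5′ to 3′ on the gene's strand with matched motifs in capitals. The RefSeq start equals that of the GENCODE gene for Nanog and Gk, lies 120 bases before it for E2f2 and 3458 bases inside it for H3f3b, whose window therefore lies within the longest annotated span of that gene. Nanog had its highest level with Rbbp7 siRNA and its lowest with both siRNAs, Gk the reverse, E2f2 was below all other libraries with both siRNAs, and H3f3b encodes H3.3. The windows are chr6:122707239-122707488 (plus strand), chrX:85776820-85777069 (minus strand), chr4:136172024-136172273 (plus strand) and chr11:116024505-116024754 (minus strand).
Nanog: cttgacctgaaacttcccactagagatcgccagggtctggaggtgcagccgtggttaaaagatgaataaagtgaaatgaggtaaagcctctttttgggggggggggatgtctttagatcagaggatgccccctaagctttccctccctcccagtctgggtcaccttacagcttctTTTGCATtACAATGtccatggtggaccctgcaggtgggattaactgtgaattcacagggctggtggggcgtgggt
Gk: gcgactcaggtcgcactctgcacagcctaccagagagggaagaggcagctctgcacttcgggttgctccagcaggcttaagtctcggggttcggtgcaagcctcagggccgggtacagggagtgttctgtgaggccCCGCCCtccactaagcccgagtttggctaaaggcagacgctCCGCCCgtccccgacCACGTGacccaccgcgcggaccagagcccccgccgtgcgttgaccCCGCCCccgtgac
E2f2: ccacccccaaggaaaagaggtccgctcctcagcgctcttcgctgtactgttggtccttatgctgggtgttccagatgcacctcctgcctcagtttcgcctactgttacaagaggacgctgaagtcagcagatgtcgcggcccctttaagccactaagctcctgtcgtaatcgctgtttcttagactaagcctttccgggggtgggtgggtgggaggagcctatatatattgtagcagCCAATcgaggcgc
H3f3b: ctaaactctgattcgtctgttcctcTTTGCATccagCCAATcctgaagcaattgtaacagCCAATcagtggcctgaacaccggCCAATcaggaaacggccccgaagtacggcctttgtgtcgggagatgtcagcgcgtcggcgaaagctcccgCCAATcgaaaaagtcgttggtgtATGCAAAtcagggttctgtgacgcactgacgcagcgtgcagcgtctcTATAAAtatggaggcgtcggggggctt
In Nanog, a known target of OCT4 and SOX2, the capitals mark the motifs TTTGCAT and ACAATG, which lie 1 base apart. They were searched for because they were seen in this promoter, and of the 7652 of 9792 genes with a promoter available, 2.98% and 5.55% hold them. In Gk they mark 3 GC boxes (GGGCGG, on the other strand here) and an E-box (CACGTG), motifs held by 62.8% and 8.78% of the 7652 promoters. In E2f2 they mark 1 CCAAT box, and in H3f3b 4 CCAAT boxes, a TATA box (TATAAA) and 2 copies of TTTGCAT, 1 on each strand; CCAAT and TATAAA are held at least once by 37.5% and 5.40% of the promoters. All motifs were searched on both strands.

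Across the classes, the cell cycle element CHR (TTTGAA) was in 0 of 21 promoters of higher double-only genes and 3 of 28 of opposite genes with a positive interaction, against 10.3% of all 7652. The E2F motif (TTTCCCGC or TTTGGCGC) was in 0 of 21 and 1 of 28, against 2.85%. The E-box was in 4 of 21 higher double-only promoters, against 8.78%. A GC box was in 25 of 63 promoters of back-to-control genes with a positive interaction (39.7%) against 62.8% overall. These shares are counts of letters in a window and were not tested.

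Genes that were higher with both siRNAs included several that differed little with either siRNA alone. BC051019 (gene ENSMUSG00000031022, chr7:109712181-109723850) was at 257 and 220.2 in the control, 303 and 508 with Rbbp4 siRNA, 306 and 240.4 with Rbbp7 siRNA and 1786 and 1197 with both siRNAs. Both double knockdown libraries lay above the other 6, the difference from them was 2.31 ± 0.23 (log2 ± SE, adjusted p = 0.00866), and this call held without any 1 library but not without the intensity trend (adjusted p = 0.0593). Its change from control was already 0.72 with Rbbp4 siRNA, so it counts as more than additive, with an interaction of 1.71 ± 0.39 (adjusted p = 0.593).

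Klhdc7a (chr4:139960220-139968026), a kelch-domain gene, was at 296 and 276 in the control, 356 and 358, and 296 and 296 in the Rbbp4 and Rbbp7 knockdowns, and 987 and 741 with both siRNAs. The 6 other libraries lay within a narrow band and both double knockdown libraries at more than 2 times its top. The difference was 1.46 ± 0.14 (adjusted p = 0.00866; 0.0604 without Rbbp4 knockdown replicate 1) and the interaction 1.21 ± 0.25. Cdhr2 (chr13:54701461-54736662), a protocadherin of the brush border, was at 33.1 and 15.0, 24.9 and 27.5, 38.8 and 25.1, and 168 and 143 in the same order, so the other 6 libraries were all well below both double knockdown libraries, through which alone the gene reached the mean of 50. Its difference was 2.51 ± 0.38 (adjusted p = 0.0241).

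Zhx3, a zinc finger and homeobox gene, was at 584 and 329 with both siRNAs, 209.8 and 161 in the control, 155 and 187 with Rbbp4 siRNA and 159 and 154 with Rbbp7 siRNA, so both double knockdown libraries were above the rest. The difference was 1.36 ± 0.23 (adjusted p = 0.0351), while the change of 1.25 from the control alone was not called (adjusted p = 0.0802). Among other double-only genes with higher levels, Cd74, Tmem45b, Csta1 and Iffo1 had interactions of 1.29, 1.57, 1.61 and 1.32, and none of the 4 was called (adjusted p = 0.0647 to 0.0861). Of these, Cd74, Tmem45b and Iffo1 also reached the mean of 50 only through the double knockdown.

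Sox9 and Elovl3 lay further up than the sum of single changes that were already at least 0.5 with Rbbp4 siRNA. Sox9 (chr11:112782224-112787760), a developmental transcription factor, was at 57.3 and 80.2 in the control, 125 and 89.6 with Rbbp4 siRNA, 45.9 and 58.5 with Rbbp7 siRNA and 338 and 290.3 with both siRNAs. The double knockdown libraries were more than 2 times the highest of the others, with a difference of 2.11 ± 0.25 (adjusted p = 0.0137) and an interaction of 1.94 ± 0.43. Elovl3, a fatty acid elongase, was at 3.80 and 6.01, 18.6 and 41.6, 8.72 and 6.25, and 196 and 159, so it passed the limit of 50 only through the double knockdown, with a difference of 3.99 ± 0.47 (adjusted p = 0.0137). Vav1, a guanine nucleotide exchange factor of blood cell signalling, was at 139 and 89.2, 205 and 248, 88.8 and 118, and 421 and 478, with a difference of 1.70 ± 0.22 (adjusted p = 0.0174). The blood cell markers summed to 23.2 and 33.0 with both siRNAs against 10.9 to 22.8 in the other libraries, and their part in the Vav1 values was not tested.

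Double-only genes with lower levels included signalling and cell cycle genes. E2f2 (chr4:136172394-136196057), an E2F transcription factor of the G1/S transition, was at 286 and 276 in the control, 283 and 289.6, and 243 and 224 in the single knockdowns and 132 and 105 with both siRNAs, where both libraries were below all others. Its difference was −1.17 ± 0.16 (adjusted p = 0.0199) and its interaction −1.01 ± 0.28. Nr4a1, an orphan nuclear receptor and immediate early gene, was at 245 and 253, 209.8 and 202, 283 and 245, and 96.0 and 113, again without overlap (difference −1.19 ± 0.16, adjusted p = 0.0199).

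Kif21b, a kinesin, was at 147 and 173 in the control, 199.7 and 163, and 158 and 284 in the single knockdowns and 64.7 and 62.9 with both siRNAs, with an interaction of −2.60 to −1.19 over the 16 choices of libraries. Its difference was −1.50 ± 0.25 (adjusted p = 0.0313), while the change of −1.31 from the control alone was not called (adjusted p = 0.0824). Syp, which encodes synaptophysin, was at 33.6 and 38.0 with both siRNAs against 143 and 115 in the control (−1.75 ± 0.28, adjusted p = 0.0285), and Igsf3 fell by 1.17 (adjusted p = 0.0256). Smim11, Lrrcc1 and Lars2, the mitochondrial leucyl-tRNA synthetase, had interactions of −1.30, −1.37 and −1.90 and were not called (adjusted p = 0.0635, 0.0954 and 0.0652). Lrrcc1 reached the mean of 50 only through the Rbbp7 knockdown, its highest group. The 2 double knockdown libraries of Lars2 differed from each other, at 186 and 84.4, and its control libraries were further apart, at 259 and 660.

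**Figure D2:**
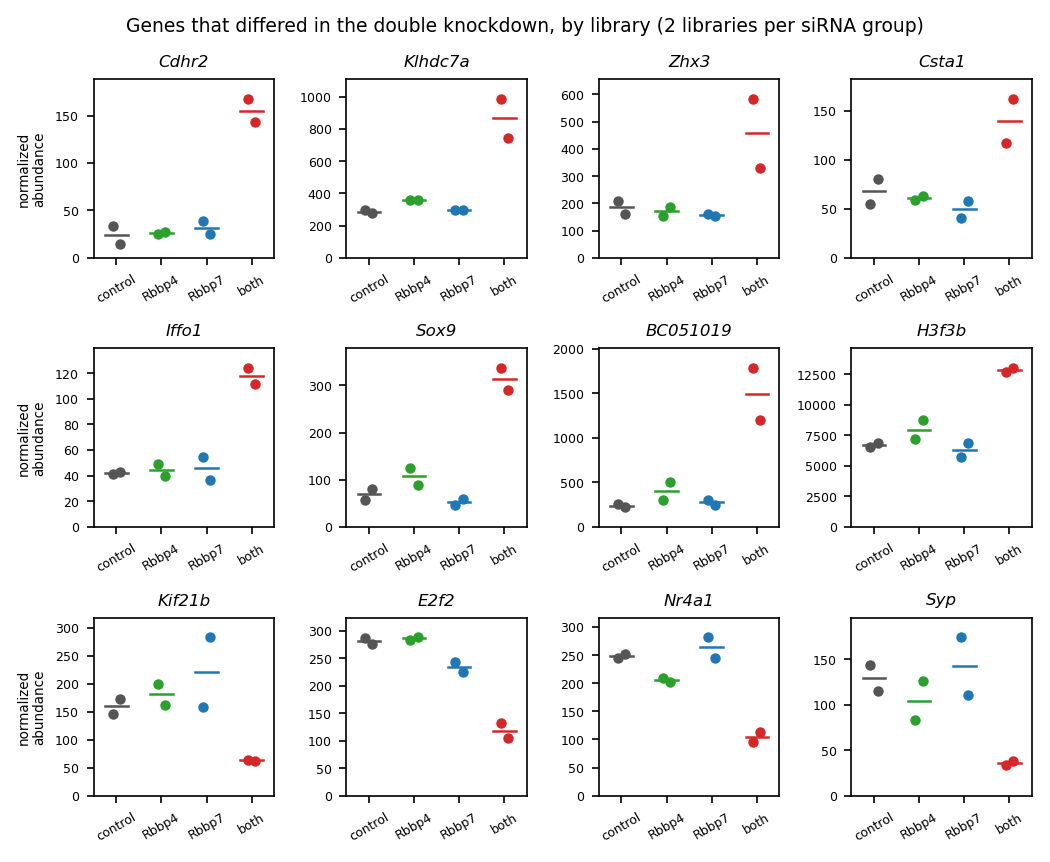
Normalized abundance (vertical axes, linear, starting at 0) of 12 genes in each library, with the groups on the horizontal axes (control, Rbbp4 siRNA, Rbbp7 siRNA, both). Points are libraries and bars are means of 2; in each panel both double knockdown libraries lie outside the range of the other 6.

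H3f3b, one of the genes encoding H3.3, was higher with both siRNAs than in the other groups. It was at 6557 and 6874 in the control, 7184 and 8728 with Rbbp4 siRNA, 5671 and 6894 with Rbbp7 siRNA and 12632 and 13024 with both siRNAs. Both double knockdown libraries were above the other 6, by 0.89 ± 0.11 on average (log2 ± SE, adjusted p = 0.0146), and the interaction was 0.80 ± 0.19 (adjusted p = 0.593), positive in all 16 choices of libraries (0.46 to 1.14). H3f3a, the other H3.3 gene, was at 7484 and 5843, 6073 and 6321, 5479 and 5481, and 7833 and 6723, with an interaction of 0.50 ± 0.19 and a difference of 0.26 ± 0.11 that was not called (adjusted p = 0.294).

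Genes for the chaperones that place H3 and H3.3 had interactions of both signs. Of the 15 genes on the H3.3 and H3 chaperone list, all of which were used, 8 had a positive and 7 a negative interaction, and the median was 0.07 against −0.02 over all genes. With both siRNAs against the other groups 1 of the 15 (H3f3b) was called, against 1.05% of all genes used. Daxx, an H3.3 chaperone, had an interaction of −0.47 and Chaf1a, the large CAF-1 subunit, 0.39 ± 0.19, each with the same sign in all 16 choices. The list's median was −0.07 without control replicate 1.

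The chromatin complexes that hold RBBP4 and RBBP7 showed departures in both directions. In NuRD, Cdk2ap1 was at 3545 and 2847 in the control, 3189 and 3033 with Rbbp4 siRNA, 2058 and 1910.2 with Rbbp7 siRNA and 3455 and 2962 with both siRNAs, so the low values of the Rbbp7 knockdown were not seen when both were targeted (interaction 0.72 ± 0.19). Hdac2, a catalytic deacetylase, was at 2981 and 2457, 3032 and 3133, 2109.7 and 2482, and 3616 and 3953 (0.54 ± 0.19). Its paralog Hdac1 was at 3726 and 3979, 3362 and 3671, 5519 and 5804, and 3779 and 3909.5 (−0.43 ± 0.15), highest with Rbbp7 siRNA, so the paralogs had interactions of opposite sign.

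Chd4, the NuRD remodeller, had an interaction of −0.54 ± 0.20. These 4 signs held in all 16 choices of libraries, and no NuRD gene of the 12 used was called with both siRNAs against the others. Over all genes used 1.05% were called, so nothing is read from such counts in lists of this size. Of 10 PRC2 genes 7 were negative, with a median of −0.21 (−0.24 to −0.10 leaving out 1 library), and 1 was called: Mtf2, an accessory subunit, at 5295 and 5448, 4619 and 4452, 4021 and 4542, and 3142 and 3097 (difference −0.59 ± 0.09, adjusted p = 0.0228). The levels of Mtf2 stepped down from control through the single knockdowns and its interaction was −0.21 ± 0.15. The core subunits Ezh2 and Suz12 had interactions of −0.23 ± 0.17 and −0.28 ± 0.17. The SIN3 and MuvB list had a median of −0.02 over 19 genes (−0.02 to 0.06 leaving out 1 library), and 0 were called.

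Nanog, a transcription factor of the inner cell mass, had the smallest interaction p-value of the 9792 genes. It was at 6698 and 6322 in the control libraries, 6545 and 6051 with Rbbp4 siRNA, 9093 and 10156 with Rbbp7 siRNA and 4192 and 4692 with both siRNAs. The Rbbp4 knockdown overlapped the control, both Rbbp7 knockdown libraries were above all others and both double knockdown libraries below all others. The changes from control were −0.05, 0.56 and −0.55, and the interaction was −1.07 ± 0.16 (unadjusted p = 8.72e-05, adjusted p = 0.369; −1.33 to −0.81 over the 16 choices of libraries). The double knockdown was below the mean of the other groups by a called margin (−0.72 ± 0.09, adjusted p = 0.0174).

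Other pluripotency genes mostly had smaller interactions. Of the 23 genes used, Nanog included, 8 had a negative interaction in all 16 choices of libraries and 0 a positive one, against 10.3% and 9.66% of all genes, while the median was −0.03 (−0.25 to −0.04 leaving out 1 library). Fgf4, the growth factor through which inner cells signal, was at 177 and 150.4 in the control, 152 and 103 with Rbbp4 siRNA, 605 and 385 with Rbbp7 siRNA and 209 and 99.2 with both siRNAs, so both Rbbp7 knockdown libraries were above the rest (interaction −1.36 ± 0.53). Tfcp2l1 and Dppa3 had interactions of −0.33 ± 0.17 and −0.14 ± 0.15. Pou5f1, which encodes OCT4, was at 13210.4 and 16243 in the control, 17835 and 16019 with Rbbp7 siRNA and 15910.2 and 13735 with both siRNAs, with overlapping groups and an interaction of −0.30 ± 0.19. Sox2 was too variable between libraries to give a direction, with an interaction of 0.14 ± 0.88. Gata6, of the primitive endoderm, had an interaction of −0.10 ± 0.16.

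Gk and Lgals9 had the next smallest interaction p-values after Nanog, with the reverse pattern. Lgals9 (chr11:78962974-78984946), which encodes the lectin galectin-9, was at 158 and 167 in the control, 150.4 and 178 with Rbbp4 siRNA, 62.1 and 58.4 with Rbbp7 siRNA and 505 and 266 with both siRNAs. The Rbbp7 knockdown libraries were below and the double knockdown libraries above every other library. The changes from control were 0.01, −1.42 and 1.17 and the interaction was 2.58 ± 0.43 (adjusted p = 0.406; difference from the other groups 1.64 ± 0.25, adjusted p = 0.0241). The change of 1.17 from the control alone was not called (adjusted p = 0.102).

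Gk (chrX:85701937-85776819), which encodes glycerol kinase, was at 240.2 and 168, 178 and 166, 87.3 and 80.0, and 394 and 299 in the same order, with changes of −0.22, −1.26 and 0.77. The Rbbp7 knockdown was again below and the double knockdown above all others, with an interaction of 2.25 ± 0.35 (adjusted p = 0.369) and a called difference of 1.26 ± 0.20 (adjusted p = 0.0285). The mean of the other groups holds the low Rbbp7 knockdown, which adds to that difference. Against the control alone, the Gk change of 0.77 was not called (adjusted p = 0.162). Sall3, a zinc finger gene of low abundance that reached the mean of 50 only through the double knockdown, was at 15.3 and 38.1, 53.3 and 74.7, 4.75 and 2.09, and 257 and 94.4 (3.05 ± 0.53, adjusted p = 0.0368). Its double knockdown change from the control alone was not called (adjusted p = 0.0937). Obox8, an oocyte-type homeobox gene, was at 5.56 and 9.37 with Rbbp7 siRNA and 201 and 49.3 with both siRNAs, the libraries of the latter being far apart, and was not called (adjusted p = 0.126); it and Gm4567 likewise passed the limit only through the double knockdown. Gm4567 had an interaction of 3.53 ± 0.91, but 96.7% of its 50-base stretches occur in other genes, so its reads cannot be assigned with certainty.

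In the opposite direction, as in Nanog, Ankrd50 was at 159 and 223 in the control, 200.1 and 171 with Rbbp4 siRNA, 259.8 and 319.8 with Rbbp7 siRNA and 88.6 and 93.2 with both siRNAs. The Rbbp7 knockdown was above and the double knockdown below all other libraries (difference −1.24 ± 0.20, adjusted p = 0.0285; interaction −1.63 ± 0.34). Slc41a1, a magnesium transporter gene, was at 105 and 100.1, 82.1 and 84.5, 193 and 152, and 44.6 and 59.6 and was not called (adjusted p = 0.0652). Paox, of polyamine oxidation, Col7a1 and Mical3 had interactions of −1.97, −2.23 and −1.52 and were also not called (adjusted p = 0.0836, 0.0907 and 0.0974).

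Other genes differed in both single knockdowns and lay near the control with both siRNAs. Ttc3, which encodes a ubiquitin ligase, was at 177 and 195 in the control, 297 and 312 with Rbbp4 siRNA, 340.0 and 371 with Rbbp7 siRNA and 206 and 219 with both siRNAs. All 4 single knockdown libraries were above all control and double knockdown libraries, and the interaction was −1.45 ± 0.25 (adjusted p = 0.406; −1.66 to −1.24 over the 16 choices). Cmklr1, the chemerin receptor, was at 72.7 and 72.4, 119 and 111, 136 and 170.4, and 50.3 and 53.2, so the single knockdowns were above and the double knockdown below the control (−2.20 ± 0.38, adjusted p = 0.406). Brsk2 and Tpst1 had interactions of −1.50 ± 0.41 and −1.13 ± 0.31.

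With the signs reversed, Mid1ip1, a regulator of fatty acid synthesis, was at 311 and 201 in the control, 171 and 152, and 66.4 and 112 in the single knockdowns and 459.9 and 238 with both siRNAs (2.55 ± 0.53). Bhlhe40, a repressor linked to circadian and hypoxia responses, was at 217 and 138, 85.0 and 140.3, 85.3 and 52.7, and 184 and 222 (2.24 ± 0.51). Control libraries of both genes were well apart, at more than 1.5 times each other. Pgam2 and Slc48a1, in contrast, had close replicates, with Pgam2 at 179.9 and 167, 118 and 111, 104 and 82.1, and 146 and 158 (interactions 1.31 ± 0.34 and 1.34 ± 0.38). No gene of this class was called with both siRNAs against the other groups. The class holds only genes within 0.5 of the control with both siRNAs, which works against such a call.

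A smaller set kept the direction of the single changes but stopped short of their sum. Pcnt, of the centrosome, was at 90.6 and 148 in the control, 504 and 293, and 562 and 430.5 in the single knockdowns and 362 and 322 with both siRNAs, so all 6 knockdown libraries were above the control (interaction −2.24 ± 0.44). Lgals1, which encodes galectin-1, was at 219 and 512, 224 and 213, 112 and 119, and 206 and 199 (1.42 ± 0.48), with control libraries more than 2 times apart. Fam133b and Wdr54 had interactions of 1.88 ± 0.47 and −1.34 ± 0.46. Igf2 (2.46 ± 0.61) and Gm10925 (−3.75 ± 0.92) cannot be read with certainty, since 61.2% and 100% of their 50-base stretches occur in other annotated genes. The Gm10925 interaction passed the test without control replicate 2 (−5.02, adjusted p = 0.00651; up to 1 under the other alternatives).

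**Figure D3:**
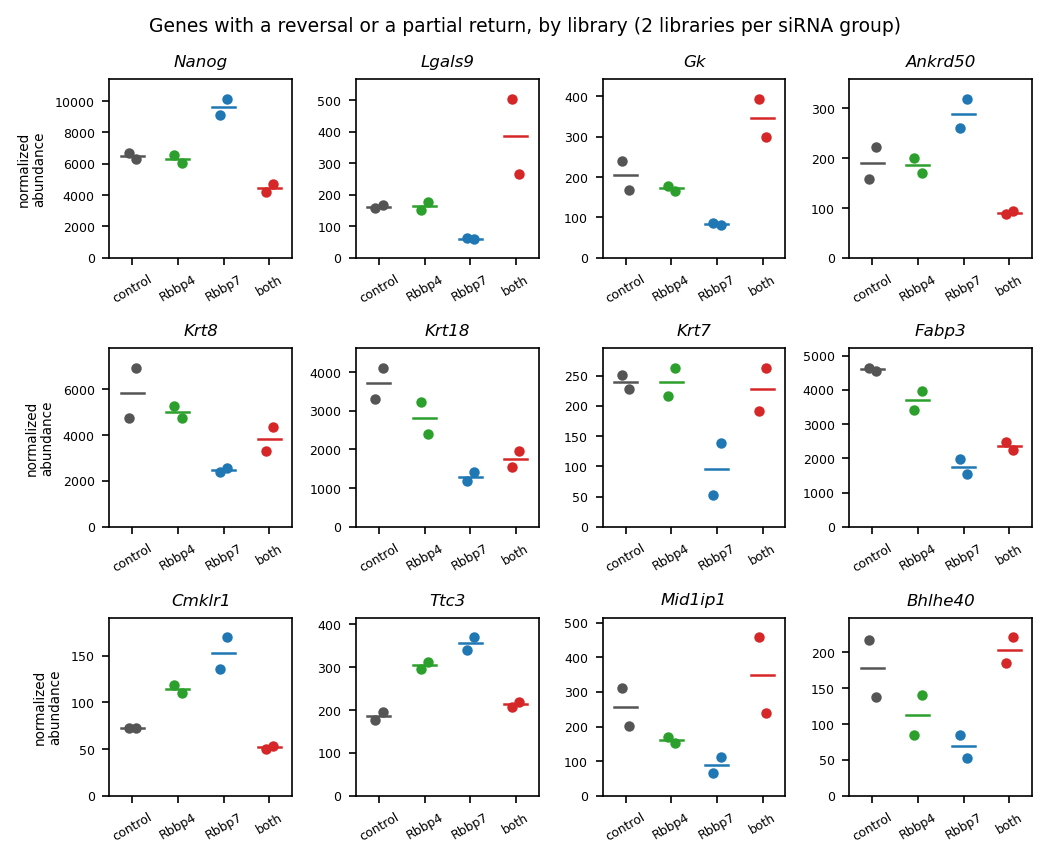
Normalized abundance (vertical axes, linear, starting at 0) of 12 genes in each library, with the groups on the horizontal axes (control, Rbbp4 siRNA, Rbbp7 siRNA, both); points are libraries and bars are means of 2. Nanog and Ankrd50 are highest with Rbbp7 siRNA and lowest with both, Lgals9 and Gk the reverse, and Krt8, Krt18, Krt7 and Fabp3 are lowest with Rbbp7 siRNA alone.

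Trophectoderm genes had more positive than negative interactions. Of the 35 genes used from this list of 38, 24 had a positive and 11 a negative interaction, 9 were positive and 0 negative in all 16 choices of libraries, and the median was 0.21 against −0.02 over all genes (0.16 to 0.29 leaving out 1 library; called with both siRNAs against the others were Id2, Atp1b1 and Plet1, all lower). Over all 9792 genes, 9.66% held a positive and 10.3% a negative sign in all 16 choices, and 0.419% were called lower. The list's median change from control was −0.04 with Rbbp4 siRNA, −0.53 with Rbbp7 siRNA and −0.20 with both siRNAs, comparisons that share the control libraries. In bulk embryos, fewer trophectoderm cells and less RNA per cell cannot be told apart.

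Krt18, Krt8 and Krt7, keratin genes of the trophectoderm's intermediate filaments, had their lowest levels with Rbbp7 siRNA alone. Krt18 was at 3299.9 and 4116 in the control, 3217 and 2395 with Rbbp4 siRNA, 1174 and 1421 with Rbbp7 siRNA and 1545 and 1959 with both siRNAs, with an interaction of 0.84 ± 0.27 (unadjusted p = 0.0122, adjusted p = 0.716). Its partner Krt8 was at 4742 and 6945, 5272 and 4737, 2400.1 and 2575, and 3326 and 4333 (0.81 ± 0.27). For both, the Rbbp7 knockdown libraries were below all others and the double knockdown libraries between them and the control. Krt7 was at 251 and 229, 216 and 263, 52.5 and 139, and 192 and 263 (1.39 ± 0.56), its double knockdown overlapping the control. Krt19 did not share this pattern, at 8.27 and 26.1 in the control, 54.6 and 96.6 with Rbbp4 siRNA, 25.8 and 46.5 with Rbbp7 siRNA and 141 and 205 with both siRNAs, where both libraries were the highest and through which alone it reached the mean of 50 (difference 2.30 ± 0.47, adjusted p = 0.0652).

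Genes of uptake and transport also had positive interactions. Fabp3, a fatty acid binding protein gene, was at 4649 and 4563, 3412 and 3968, 1984 and 1528, and 2465 and 2242 in the order above, and fell by 1.40 with Rbbp7 siRNA (adjusted p = 0.0176) and by 0.97 with both siRNAs (adjusted p = 0.0243), with an interaction of 0.76 ± 0.21. Enpep, an aminopeptidase gene, was at 2056 and 2135, 2508 and 2311, 681 and 680.4, and 1029 and 1317, fell by 1.62 with Rbbp7 siRNA (adjusted p = 0.00547) and by 0.85 with both siRNAs (adjusted p = 0.0306), and had an interaction of 0.57 ± 0.20. The endocytic receptor genes Lrp2 and Cubn had interactions of 0.63 ± 0.20 and 0.68 ± 0.22. In Lrp2 the Rbbp7 knockdown was at 10437 and 13401 and the double knockdown at 17338 and 16698, against 21859 and 20929 in the control.

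Other trophectoderm genes were additive or lower still with both siRNAs. Plet1 was at 1127 and 1064 in the control, 575 and 499 with Rbbp4 siRNA, 541 and 780.1 with Rbbp7 siRNA and 278 and 339.8 with both siRNAs, so its levels stepped down with each siRNA (interaction −0.05 ± 0.28; difference −1.24 ± 0.16, adjusted p = 0.0174). Id2, whose product blocks E proteins, was at 330.3 and 296, 248 and 270.2, 145 and 132, and 108 and 93.8 (interaction −0.18 ± 0.29; difference −1.14 ± 0.17, adjusted p = 0.0228). Atp1b1, the sodium pump subunit used in cavitation, was at 1000 and 1073, 852 and 762, 499 and 544, and 504 and 446. Its double knockdown libraries overlapped those of the Rbbp7 knockdown. The interaction of Atp1b1 was 0.23 ± 0.20 and its difference from the mean of the other groups −0.68 ± 0.12 (adjusted p = 0.0358). The transcription factor genes Cdx2 and Gata3 had interactions of −0.39 ± 0.29 and 0.04 ± 0.19, and Vtcn1 0.07 ± 0.43. The interactions of Plet1, Gata3, Vtcn1 and Krt19 (0.04 ± 0.81) changed sign when single libraries were left out, and those of Plet1 and Id2 had the other sign on the linear scale.

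**Figure D4:**
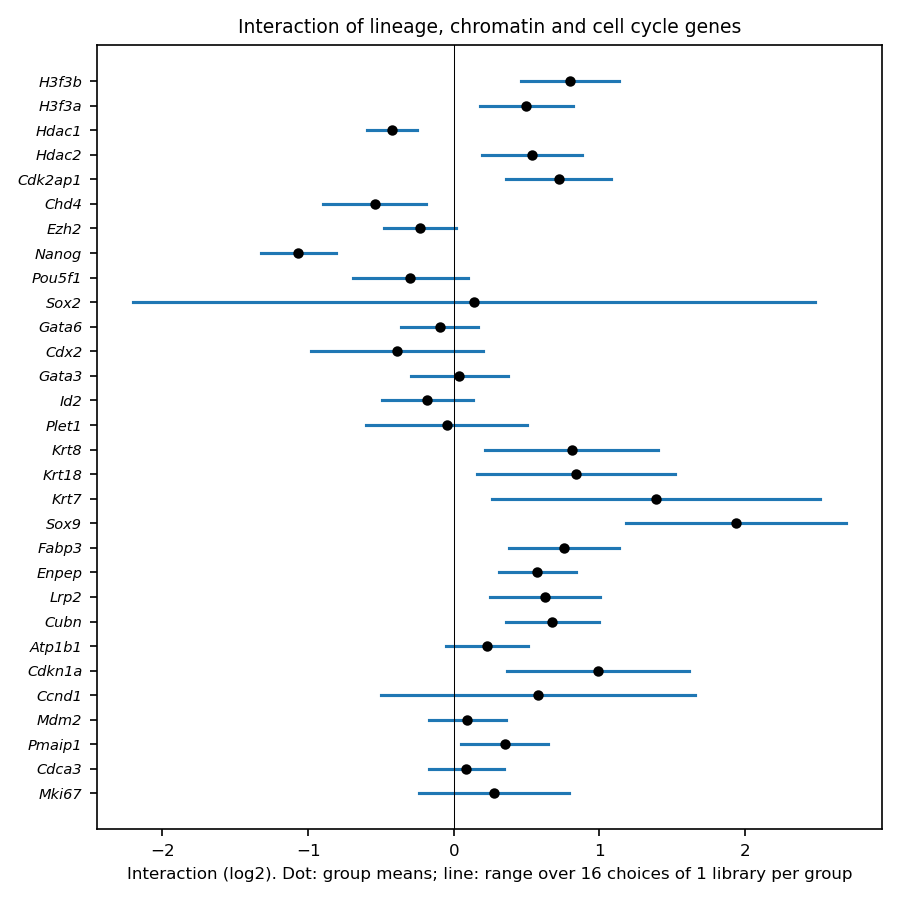
Interaction (horizontal axis, log2) of 30 lineage, chromatin, cell cycle and p53 pathway genes. Dots are values from group means and lines the range over the 16 choices of 1 library per group; the lines of Nanog, H3f3b, Krt8, Krt18, Fabp3 and Enpep do not reach 0, while those of Plet1, Gata3, Id2 and Mki67 cross it.

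Cell cycle lists had small median interactions, and the G2 and mitosis list leaned negative. The 53 G2 and mitosis genes had a median interaction of −0.12 (−0.18 to −0.07 leaving out 1 library), with 12 positive and 41 negative, 3 and 9 of which held their sign in all 16 choices. Over all 9792 genes 4578 were positive and 5214 negative, and 9.66% and 10.3% held a positive or a negative sign in all 16 choices. Mki67, a proliferation marker, was at 2091 and 1765 in the control, 1445 and 1212, and 1197 and 1446 in the single knockdowns and 1002 and 1199 with both siRNAs (interaction 0.27 ± 0.23). Cdca3, a trigger of mitotic entry and the gene of this list called with both siRNAs against the other groups, was at 1528 and 1369, 939 and 1024, 1018 and 1071, and 794 and 712 (−0.60 ± 0.11, adjusted p = 0.0397), with an interaction of 0.09 ± 0.18. Over all genes used, 1.05% were called in that comparison. Top2a (−0.40 ± 0.15) and Sgo1 (0.97 ± 0.27), which protects centromere cohesion, departed in opposite directions. The 40 DNA replication genes had a median of 0.01 (−0.07 to 0.06).

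Cdkn1a, which encodes the inhibitor p21, was at 4284 and 4415 in the control, 2539 and 2252 with Rbbp4 siRNA, 3781 and 2916 with Rbbp7 siRNA and 4561 and 2884 with both siRNAs, with an interaction of 0.99 ± 0.29 (adjusted p = 0.676). The Rbbp4 knockdown libraries were the lowest of the 8 and the double knockdown overlapped control and Rbbp7 knockdown. Ccnd1, a G1 cyclin, had an interaction of 0.58 ± 0.51. Over 32 p53 target genes the median was 0.04 (−0.02 without control replicate 1 and 0.22 without control replicate 2), and 2 were called higher with both siRNAs, against 0.633% of all genes used. One of them is Pmaip1, which encodes the pro-apoptotic NOXA, at 669 and 596, 793 and 751, 759.5 and 818, and 1338 and 1125 (0.75 ± 0.12, adjusted p = 0.0256; interaction 0.35 ± 0.20), and the other is Ddit4l (0.81 ± 0.15, adjusted p = 0.0497). Mdm2, the p53 ubiquitin ligase, was additive within its error (0.09 ± 0.19).

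Cholesterol synthesis had the lowest median interaction of the 32 lists with at least 5 genes used. Of 26 genes 24 were negative, 9 of them in all 16 choices of libraries, and the median was −0.40. Over all 9792 genes 5214 were negative, 10.3% held a negative sign in all 16 choices, and the median was −0.02. The median changes of the 26 genes from control were 0.22 with Rbbp4 siRNA, 0.22 with Rbbp7 siRNA and 0.09 with both siRNAs. Fdft1, squalene synthase, was at 981 and 1357 in the control, 1838 and 1637, and 1865 and 1829.7 in the single knockdowns and 1705 and 1899 with both siRNAs (−0.63 ± 0.23), so all 6 knockdown libraries were above the control and alike. Msmo1 had an interaction of −0.43 ± 0.19 and Nsdhl −1.45 ± 0.57, while the 2 positive values were those of Ebp (0.31 ± 0.23) and Idi1 (0.07 ± 0.24). The list's median was −0.23 without control replicate 1 and −0.44 without replicate 2. No gene of the list was called with both siRNAs against the other groups, where 1.05% of all genes used were called.

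**Figure D5:**
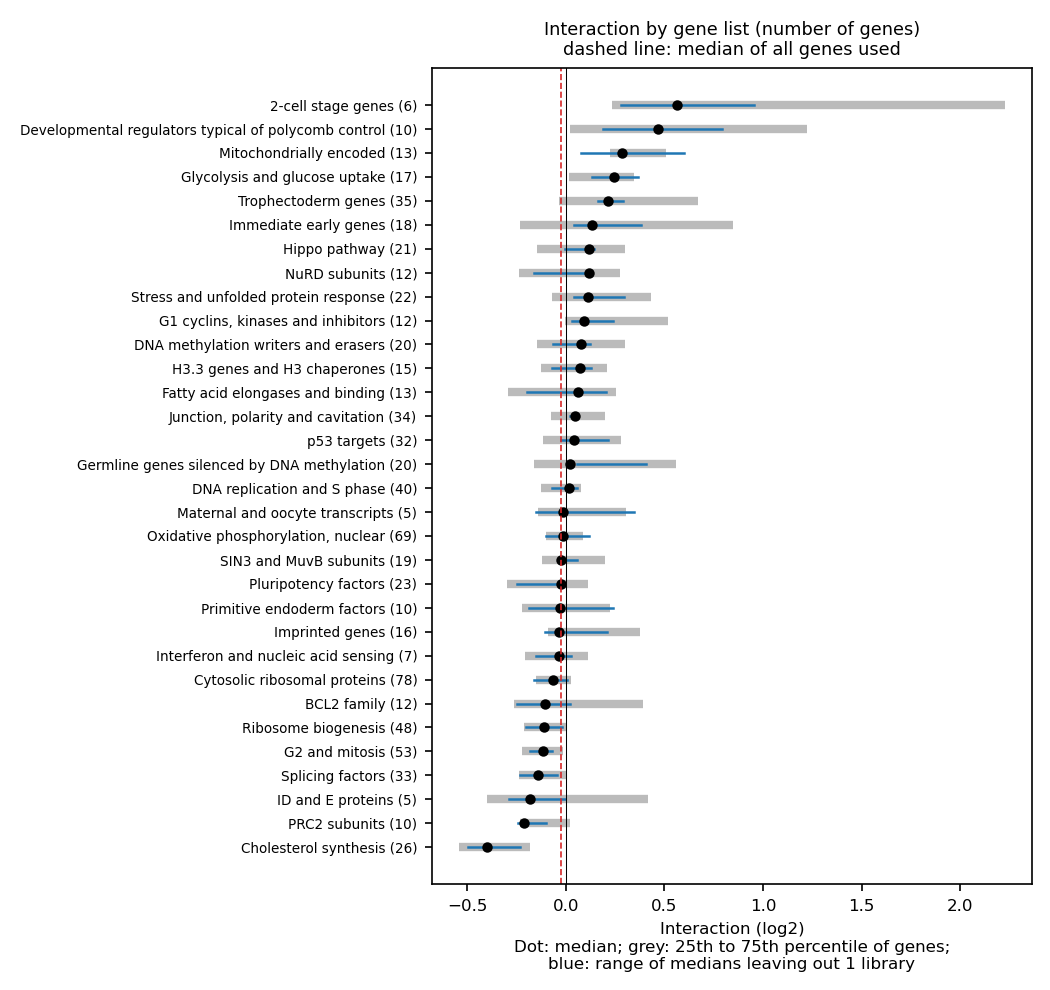
Median interaction (dots, horizontal axis, log2) of the 32 gene lists with at least 5 genes used, with the 25th to 75th percentile of genes in grey and the range of the medians when 1 library is left out in blue. Numbers of genes are in brackets and the dashed line is the median of all 9792 genes (−0.02); cholesterol synthesis is lowest at −0.40 and the 2-cell stage list, with 6 genes, highest at 0.56.

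Other metabolic and growth lists had medians nearer 0. Glycolysis genes had a median of 0.24 (0.13 to 0.37 leaving out 1 library; 13 positive, 4 negative), including Ldha, lactate dehydrogenase A, which was at 647 and 392 in the control, 612 and 619, and 814 and 701 in the single knockdowns and 1289.9 and 1846 with both siRNAs (difference 1.32 ± 0.20, adjusted p = 0.0241; interaction 0.74 ± 0.35). The 13 mitochondrially encoded genes were all positive (median 0.29), 0 of them in all 16 choices, and the median was 0.08 without control replicate 1 and 0.60 without replicate 2. Control replicate 1 had the highest mitochondrial share of the 8 libraries. The median was −0.11 for 48 ribosome biogenesis genes (−0.20 to −0.02 leaving out 1 library), −0.14 for 33 splicing factor genes (−0.23 to −0.04) and −0.06 for 78 cytosolic ribosomal protein genes (−0.16 to 0.01), against −0.02 over all genes. Among splicing genes, Hnrnpc was at 826 and 884, 756 and 671, 683 and 625, and 381 and 285 (−1.16 ± 0.14, adjusted p = 0.0144), and Pcbp4, an RNA-binding protein gene, at 118 and 87.7, 49.6 and 69.2, 52.0 and 41.7, and 12.2 and 15.2 (−2.18 ± 0.32, adjusted p = 0.0228). Pcbp4 reached the mean of 50 only through the control, its highest group.

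Small lists of genes at low abundance held large values. Of 10 genes used from the 45 in the table among developmental regulators typical of polycomb control, 7 were positive and 3 negative (median 0.47, and 0.19 to 0.79 leaving out 1 library). Sox9 was called higher, as were 0.633% of all genes used. Foxc1, Gata4 and Eomes had interactions of 1.25 ± 0.47, 1.15 ± 0.55 and 1.32 ± 0.71. Eomes was not raised with both siRNAs (148 and 250 against 223 and 210 in the control) but was low with Rbbp7 siRNA (44.7 and 149). Its interaction ranged from −0.25 to 2.90 over the 16 choices of libraries. Most of the list fell below the limits for use, so the 10 do not speak for it. All 6 genes used of the 20 in the table typical of the 2-cell embryo were positive (median 0.56; 0.28 to 0.95 leaving out 1 library), led by Gm8300 (3.55 ± 1.14) and Tdpoz4 (2.75 ± 0.94). For these 2, 26.6% and 41.2% of 50-base stretches occur in other genes, double knockdown libraries were far apart (129 and 48.3, and 315 and 104), and neither was called.

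Immediate early genes split, with 4 positive and 5 negative in all 16 choices among 18, against 9.66% and 10.3% of all genes used. Dusp1, a MAP kinase phosphatase, was at 222 and 251 in the control, 307 and 384, and 376 and 228 in the single knockdowns and 987 and 679.9 with both siRNAs (1.51 ± 0.22, adjusted p = 0.0228). Jun, in contrast, was at 728 and 798, 731 and 634, 1109 and 1050.2, and 595 and 590.2, highest with Rbbp7 siRNA and lowest with both siRNAs (−0.70 ± 0.19). Fos and Junb had interactions of 0.89 ± 0.57 and 0.99 ± 0.52. Fos, like Gm8300, reached the mean of 50 only through the double knockdown. In the stress list Dnajb9, a chaperone of the endoplasmic reticulum, was at 1929 and 1794, 1454 and 1530.4, 1397 and 1113, and 1964 and 1674 (0.86 ± 0.20), and Srxn1, an antioxidant gene, had 1.52 ± 0.38. Trim28, a corepressor that maintains imprints, was at 10829 and 10007, 7978 and 7708, 11056 and 10537, and 7157 and 6402, so its Rbbp4 and double knockdown libraries were the low ones (difference −0.50 ± 0.09, adjusted p = 0.0374; interaction −0.26 ± 0.15).

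Whether counting used strand is not given in the sources used here, and several genes named above overlap an annotated gene on the other strand, from which their reads cannot be told apart. These are Rbbp7, Rbbp4, Ndufa9, Tmem45b, Zhx3, Iffo1, Syp, Igsf3, Gk, Paox, Mical3, Mid1ip1, Bhlhe40, Slc48a1, Ttc3, Igf2, Pcnt, Wdr54, Elovl3, BC051019, Gata6, Gata3, Cdkn1a, Pcbp4, Pou5f1, Atp1b1, Fabp3, Ezh2, Plet1, Krt8, H3f3a, Ccnd1, Mtf2, Fdft1, Jun, Dnajb9, Suz12, Chaf1a, Eomes, Dusp1, Idi1, Junb, Foxl2, Krt7 and Cubn. Some genes fall outside the rule by which genes were named and were chosen after their values were seen, namely Suz12, Chaf1a, Fgf4, Eomes, Dusp1, Vav1, Nsdhl, Idi1, Ebp, Fos, Junb, Vtcn1, Foxl2, Krt7, Lrp2, Cubn, Daxx and Ddit4l. Shared sequence makes 6 further values uncertain: 25.9% of the 50-base stretches of Paox, 26.9% of Krt8, 29.2% of Fabp3, 35.3% of Hdac1, 56.1% of Cdk2ap1 and 100% of Gm10233, a back-to-control gene, occur in other annotated genes.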

How the data were processed

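The deposited table holds, for 8 libraries, a normalized signal per gene. The authors made it, per the submitters' processing notes, with Trimmomatic, HISAT2, featureCounts and DESeq2 on GRCm38; the sources used here give no versions, strand use or depths. At the best single step per library, 41.5% to 63.8% of the values under 20 were whole multiples of it (within 0.05 of a step), so whole reads were not recovered and no count model or counting interval was used. Values were taken as log2(value + 1), and fold changes on this scale understate those of low genes. limma 3.58.1 (R 4.3.3) with an intensity trend was fitted to all 4 groups over the 12565 genes whose mean reached 10 (4 residual degrees of freedom), with 2-sided tests and Benjamini-Hochberg adjustment; errors after log2 changes are SEs of this fit (n = 2 libraries a group). The fit was tested on simulated data. Scaling by trimmed means of M values (TMM), computed in R, was an alternative, and Python 3.11.15 gave counts and sums. Medians and counts of lists have no test.

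Genes were named by rule: the targets, any called interaction, the first genes of each class by the smallest interaction size over the 16 choices of libraries, and fixed genes and list members. The members and lists were chosen with earlier results of these data known. Alternatives covered pseudocount, scaling, filters, weights, the trend, class limits, the replicate block and leaving out each library. Same-numbered libraries of different groups correlated at −0.022 to 0.051 in their deviations, so the numbers pair nothing. A few genes that the rule names are not reported here.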

Additional observations from a re-analysis of the deposited data

Results flagged for a closer look

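Ndufa9, which encodes a subunit of respiratory complex I, had an interaction of 8.97 ± 0.68 (log2 ± SE; limma, adjusted p = 0.00344). The size rests on listed 0s and moved with the pseudocount, so it is no measure of a fold. It is not among the 9792 genes because the table gives 0 for both libraries with Rbbp4 siRNA alone. It was at 276 and 468 in the control, 459 and 172 with Rbbp7 siRNA, and 476 and 323 with both siRNAs, which include the Rbbp4 siRNA. A listed 0 in a table without counts can be a failed estimate. The adjusted p was 0.0658 without the intensity trend and as low as 0.00162 under the other alternatives, and the interaction of Ndufa9 was 9.97 with a pseudocount of 0.5 and 5.99 with 8. Groups of 2 libraries were not examined for single outlying libraries.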

How the results depend on the processing

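Of 2 libraries a group, leaving out 1 leaves a lone library that is assumed to vary like the other groups. The interaction was called for 1 gene, for 0 when only the 9792 genes were fitted, and for 1 to 21 when 1 library was left out (21 without control replicate 2). The double knockdown differed from the other groups for 111 tested genes, for 65 with array weights, which here equal group weights (65), for 20 without the intensity trend, and for 3 to 107 when 1 library was left out. With the replicate block the counts were 1 and 88; the replicate numbers are shared numbers and not a pairing.

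Double-only genes numbered 47, 37 to 90 when 1 library was left out, 128 with a size limit of 0.75, 5 with 1.5, 25 with a mean of at least 100 and 86 with at least 20. Reversals numbered 221, 270 to 331 when 1 library was left out, 421 with a limit of 0.75, 74 with 1.5, 115 with a mean of at least 100 and 423 with at least 20. When 1 library was left out, 19 to 39 of the 47 double-only genes and 125 to 184 of the 221 reversals remained in their class, fewest without control replicate 1 in both. So the class counts depend on the limits and on the libraries. On the linear scale the interactions of Irf3 (0.011), Id2 (16.4), Pcbp4 (10.1) and Plet1 (207) had the other sign, as had Vtcn1 with quantile normalization (−0.085); the cause was not tested. Leaving out 1 library turned the sign of Gata3 (−0.080 to 0.16), Mdm2 (−0.040 to 0.23), Krt19 (−0.73 to 0.82), Plet1 (−0.31 to 0.22), Sox2 (−0.72 to 1.0), Idi1 (−0.21 to 0.34) and Vtcn1 (−0.23 to 0.38). Depth per library is not known, so the precision of low values rests on the spread between 2 libraries.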
